A study of Mus musculus with 2 samples.

Results

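Toll-like receptors are membrane proteins of the innate immune system that bind parts of microbes. Receptors at the cell surface bind lipids, lipoproteins and flagellin, whereas receptors in endosomes bind nucleic acids. Most of them signal through the adaptor MyD88 to NF-kB and interferon regulatory factors, and TLR3 signals through TRIF instead. The 10 genes described here are the surface receptors *Tlr1*, *Tlr2*, *Tlr4*, *Tlr5* and *Tlr6* and the nucleic acid receptors *Tlr3*, *Tlr7*, *Tlr8*, *Tlr9* and *Tlr13*. They were chosen by symbol, and all 10 were found among the 50768 features of both libraries.

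The single-cell RNA sequencing compared 1 library from NOD/ShiLtJ mice, an inbred strain that develops a Sjögren's-like disease and diabetes, with 1 library from CD1 mice, an outbred control strain. Both were untreated females of 20 weeks, and their submandibular glands with the attached sublingual glands were pooled, from 4 mice per strain in the methods and 3 in the sample labels. EpCAM-positive and Ter119-positive cells were depleted and dead cells were removed, so the share of each cell type is that of the prepared cells and not of the gland. With 1 pool per strain there was no replicate, so no difference between strains could be tested.

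RNA molecules were counted by their UMI, a random tag that marks a molecule before amplification. No length correction was therefore made between genes, although capture can differ between them. The libraries held 52790319 UMIs in NOD and 56483149 in CD1. Barcodes with at least 500 UMIs and 300 genes were kept, 6500 in NOD and 7014 in CD1, with medians of 5719.5 and 6495 UMIs. The libraries shared 18 of these barcode sequences. A barcode was placed in a class when at least 3 UMIs from at least 2 markers of a list were found and that list held at least 75% of its marker UMIs. A class of this kind is a range of a score and not a cell type. Of the macrophage-like barcodes, 79 in NOD and 165 in CD1 had a marker share below 85%. A level is the number of UMIs of a gene in a class divided by all UMIs of the class, per 1000000 UMIs (CPM). Ratios between strains are given as log2 of NOD over CD1. All intervals are exact 95% intervals that cover counting error only, and leave out the differences between mice.

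Macrophage-like barcodes, named from *C1qa*, *Csf1r*, *Adgre1* and related genes, numbered 689 in NOD (10.6%) and 2896 in CD1 (41.3%). Endothelial-like barcodes numbered 1032 and 2870, and T/NK-like barcodes 2419 and 439. B-like barcodes numbered 768 in NOD and 8 in CD1, fibroblast-like barcodes 52 and 15, and dendritic-like barcodes 24 and 2. The leading genes of these classes included *C1qa*, *C1qb* and *C1qc* for macrophages, *Flt1* and *Kdr* for endothelium, *Pax5* and *Cd79a* for B cells and *Dcn* for fibroblasts. Barcodes with markers of several lists (653 in NOD and 332 in CD1) and those with too few markers (764 and 375) were left without a class.

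Over all kept barcodes, the 10 receptors together were at 90.9 CPM in NOD against 219 in CD1, a log2 ratio of -1.27 (-1.32 to -1.22). All 10 had lower values in NOD, and the interval held 0 only for *Tlr5*. The log2 ratio ran from -2.01 for *Tlr13*, a receptor for bacterial ribosomal RNA, to -0.21 for *Tlr1*, which pairs with TLR2 to bind lipoproteins. Of the 10, 5 were at least 2-fold lower in NOD, against 14.6% of all genes with at least 20 UMIs in this comparison. Within the macrophage-like class the same sum was 439 CPM (418 to 459) for NOD and 436 CPM (427 to 446) for CD1. The log2 ratio there was 0.01 (-0.07 to 0.08). The lower level over all barcodes stood beside a share of macrophage-like barcodes of 10.6% in NOD and 41.3% in CD1. Droplets of 10 to 100 UMIs, which hold free RNA, gave 84.5 CPM for the 10 receptors in NOD and 218 in CD1, close to the levels over all kept barcodes. In these sums, fewer cells of a type and less RNA per cell cannot be told apart.

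The macrophage-like class held 45.5% of the 3947 receptor UMIs in NOD and 79.7% of the 10840 in CD1. Of the UMIs of all genes it held 4090779 of 43439635 in NOD and 19811429 of 49420810 in CD1. *Tlr2* was the most abundant receptor in this class, with 130 CPM (119 to 141) for NOD and 150.2 CPM (145 to 156) for CD1. *Tlr7*, which binds single-stranded RNA, stood at 65.8 and 62.7 CPM, and *Tlr13* at 62.1 and 66.7. *Tlr4*, the receptor for lipopolysaccharide, stood at 60.6 and 52.8 CPM and *Tlr1* at 46.0 and 47.2. In CD1 the intervals of *Tlr7* (59.3 to 66.3) and *Tlr13* (63.2 to 70.4) overlapped, and in NOD those of *Tlr4*, *Tlr7* and *Tlr13* did. *Tlr3* and *Tlr8* followed, with 29.6 and 31.3 CPM in NOD and 22.2 and 19.1 in CD1. *Tlr6* (9.04 and 10.7 CPM), *Tlr9* (3.42 and 3.28) and *Tlr5*, the flagellin receptor (0.978 and 1.21), were the lowest.

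**Figure D1:**
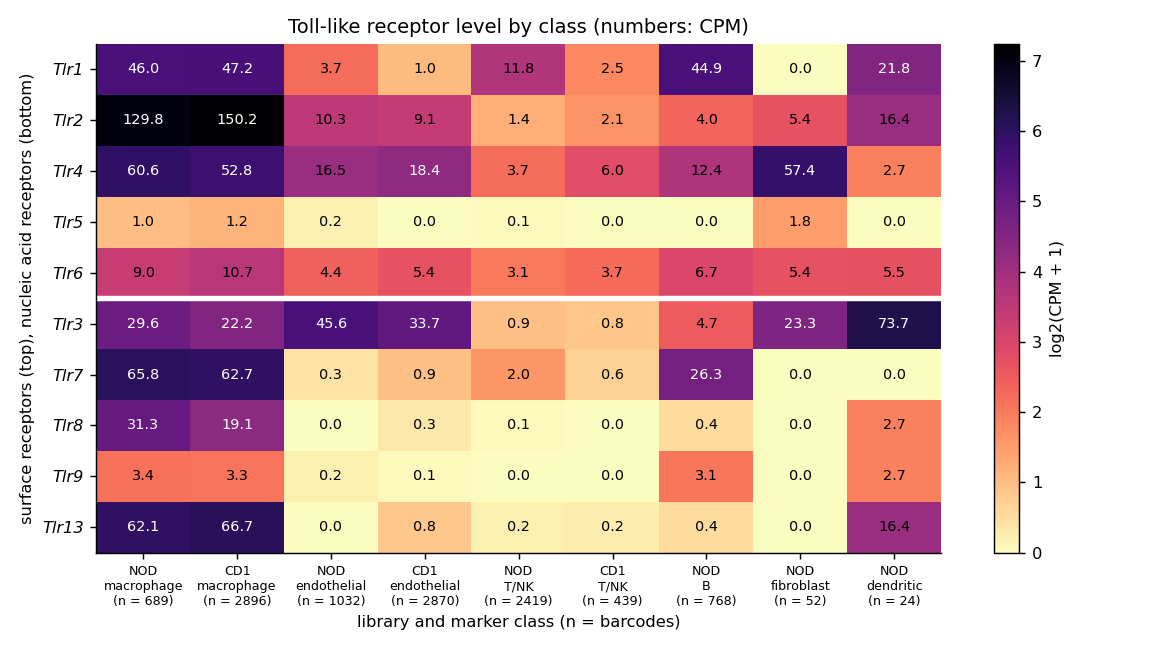
Receptor level in CPM (printed numbers, with the color on a log2(CPM + 1) scale) by library and marker class, with the surface receptors above the white line and the nucleic acid receptors below it. *Tlr2* was highest in the macrophage-like columns (130 and 150.2 CPM), and *Tlr3* was higher in the endothelial-like columns (45.6 and 33.7) than in the macrophage-like ones.

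The lineages differed in which receptors they held. Of the 10 receptors, 8 in NOD and 9 in CD1 were highest in the macrophage-like class among classes of at least 50 barcodes. In NOD the others were the B, plasma, T/NK, endothelial and fibroblast-like classes. In CD1 they were only the T/NK and endothelial-like classes, so the 2 counts are not alike. *Tlr3*, the receptor for double-stranded RNA, was an exception in both libraries, and *Tlr5* was the other in NOD, from 1 UMI in fibroblast-like barcodes. *Tlr3* stood at 45.6 CPM in NOD endothelial-like barcodes (40.3 to 51.3) against 29.6 in macrophage-like ones, a log2 ratio of macrophage to endothelium of -0.62 (-0.94 to -0.31). In CD1 the 2 levels were 33.7 and 22.2 CPM, with a log2 ratio of -0.60 (-0.78 to -0.43). The endothelial-like class held 51.1% of all *Tlr3* UMIs in NOD and 55.5% in CD1. Of the UMIs of all genes it held 5948177 of 43439635 in NOD and 19391521 of 49420810 in CD1. After each barcode was thinned to 2000 UMIs, 9.04% of NOD and 6.48% of CD1 endothelial-like barcodes had a *Tlr3* UMI (20.5% and 18.3% before thinning). In T/NK-like barcodes, taken as a background, 0.127% and 0.232% had one.

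*Tlr7*, *Tlr8* and *Tlr13* were nearly absent from endothelium. *Tlr8*, a receptor for RNA fragments, had 0 UMIs in NOD endothelial-like barcodes, which allows a level of up to 0.504 CPM (3 UMIs), and 5 UMIs in CD1. *Tlr13* had 0 and 15 UMIs there. In CD1 the log2 ratio of macrophage to endothelium was 6.43 for *Tlr13* (5.70 to 7.27) and 6.08 for *Tlr7* (5.41 to 6.84). *Tlr2* and *Tlr4* were found in endothelium at lower levels, with *Tlr4* at 16.5 CPM in NOD and 18.4 in CD1 and *Tlr2* at 10.3 and 9.13. The free RNA had *Tlr4* at 14.5 and 36.5 CPM and *Tlr2* at 16.7 and 73.9, above the endothelial *Tlr2* level in both libraries. From B and T-cell markers, free RNA was estimated as 5.66% of endothelial-like UMIs in NOD and 7.42% in CD1. The part of free RNA in the endothelial *Tlr2* and *Tlr4* levels was not tested. *Tlr3* in free RNA stood at 6.74 and 20.2 CPM, below its endothelial level in both.

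**Figure D2:**
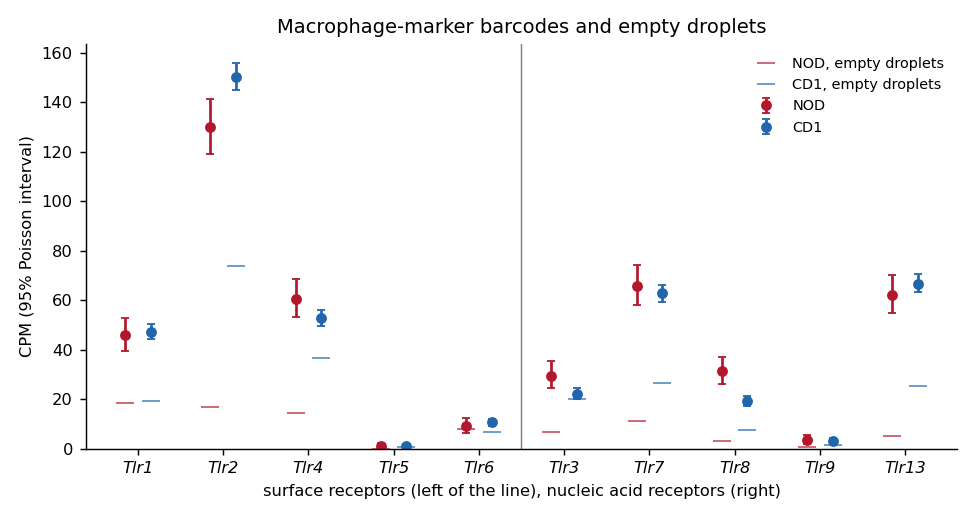
Receptor level in macrophage-like barcodes (points, CPM with 95% Poisson intervals) and in droplets of 10 to 100 UMIs (dashes) of each library. All NOD and CD1 points lay within 2-fold of each other, and the *Tlr2* dash was at 73.9 CPM in CD1 and 16.7 CPM in NOD.

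B-like barcodes of NOD held *Tlr1* and *Tlr7*. *Tlr1* reached 44.9 CPM there (200 UMIs, 38.9 to 51.6), with a log2 ratio of macrophage to B of 0.03 (-0.26 to 0.33), so the 2 levels did not differ beyond counting error. *Tlr7* stood at 26.3 CPM (21.7 to 31.5), *Tlr4* at 12.4, *Tlr6* at 6.74 and *Tlr3* at 4.72. *Tlr9*, the receptor for unmethylated CpG DNA, had 14 UMIs in 14 of the 768 barcodes (3.14 CPM, 1.72 to 5.28), close to its level in NOD macrophages (3.42 CPM, 1.87 to 5.74). *Tlr8* and *Tlr13* had 2 UMIs each. *Cd180*, a relative of the Toll-like receptors that pairs with MD-1, stood at 90.5 CPM in the same barcodes. The 8 B-like barcodes of CD1 held 3 *Tlr1* UMIs and none of the other 9 receptors, so the strains could not be compared there.

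*Tlr4* was the leading receptor of fibroblast-like barcodes, with 32 UMIs in NOD (57.4 CPM, 39.3 to 81.1) and 6 in CD1 (41.2 CPM, 15.1 to 89.7). In NOD its log2 ratio of macrophage to fibroblast was 0.08 (-0.46 to 0.66). *Tlr3* followed with 13 and 5 UMIs (23.3 and 34.4 CPM), and *Tlr1*, *Tlr7*, *Tlr8*, *Tlr9* and *Tlr13* had 0 UMIs in both libraries. The strain ratio of *Tlr4* there was 0.48 (-0.80 to 2.03), so no difference was detectable at this depth. Median-of-ratios scaling shifts ratios of this class by 0.13.

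The dendritic-like barcodes of NOD led in *Tlr3*, at 73.7 CPM (48.6 to 107) over 24 barcodes. The 27 UMIs came from 7 barcodes, all among the 18 with *Xcr1* or *Clec9a*, markers of conventional type 1 dendritic cells, and the 6 others had none. In CD1, 1 of 2 such barcodes had 8 *Tlr3* UMIs. The plasmacytoid-like barcodes, 7 in NOD and 1 in CD1, held *Tlr7* (18 and 2 UMIs, found in 6 of the 7 and in the 1 barcode) and no *Tlr9* UMI. This allows *Tlr9* up to 26.8 CPM in NOD, so a level like that of B-like barcodes was not detectable. The 72 plasma-like barcodes of NOD held between 0 and 5 UMIs of each receptor. These classes were too small for a comparison of strains.

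The question between strains was whether the receptors of macrophages differed, and whether nucleic acid receptors moved apart from surface receptors. None of the 10 receptors (0 of 10) reached a 2-fold difference in the macrophage-like class, against 13.7% of 14518 genes with at least 20 UMIs. The median log2 ratio was 0.01 over the 10 receptors and 0.06 over those genes. The surface receptors together were at 246 CPM in NOD against 262 in CD1, a log2 ratio of -0.09 (-0.19 to 0.01). The nucleic acid receptors together stood at 192 and 174 CPM, a log2 ratio of 0.14 (0.03 to 0.25), and the interval held 0 under median-of-ratios scaling (0.08, -0.03 to 0.19). Nucleic acid receptors thus made up 43.8% of receptor UMIs in NOD and 39.9% in CD1. The log2 odds ratio, which does not depend on library size, was 0.23 (0.08 to 0.38). It was 0.17 (-0.01 to 0.36) in barcodes without T/NK or B marker UMIs, where the interval held 0. Of the nucleic acid receptors, only *Tlr8* and *Tlr3* had single ratios with an interval above 0, as given next.

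Single receptors differed in their ratios. *Tlr8* had the largest ratio, with 128 UMIs in NOD and 379 in CD1 (31.3 against 19.1 CPM) and a log2 ratio of 0.71 (0.41 to 1.00). *Tlr3* followed at 0.41 (0.11 to 0.71). *Tlr7*, the neighbour of *Tlr8* in the RefSeq annotation, was at 0.07 (-0.13 to 0.26), *Tlr13* at -0.10 (-0.30 to 0.09) and *Tlr9* at 0.06 (-0.89 to 0.91). Among surface receptors, *Tlr2* was lower in NOD at -0.21 (-0.35 to -0.08), although the interval held 0 at a marker share of at least 90% (-0.13, -0.28 to 0.01). *Tlr4* stood at 0.20 (-0.01 to 0.40), *Tlr1* at -0.04 (-0.27 to 0.19), *Tlr6* at -0.24 (-0.78 to 0.27) and *Tlr5* at -0.31 (-2.30 to 1.23). *Tlr1* and *Tlr6* share 18.3% of the *Tlr1* transcripts' stretches of 31 bases in GENCODE, the only one of 66 receptor pairs that shares any, so the split of their reads is less certain.

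The share of barcodes with a UMI gave the same order for *Tlr8*. After thinning, 5.83% of 446 NOD macrophage-like barcodes (3.84% to 8.43%) and 3.003% of 2198 in CD1 (2.33% to 3.81%) had a *Tlr8* UMI, against 12.0% and 9.29% before thinning. For *Tlr2* the shares were 24.0% (20.1% to 28.2%) and 23.1% (21.3% to 24.9%), against 34.3% and 46.3% before thinning and 0.382% and 0% in thinned T/NK-like barcodes. No difference in the share of *Tlr2* was detectable at the common depth. Thinning left out 243 NOD and 698 CD1 barcodes below 2000 UMIs. Of the T/NK-like barcodes, 0% had a *Tlr8* UMI after thinning, at most 0.157% in NOD and 0.852% in CD1.

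**Figure D3:**
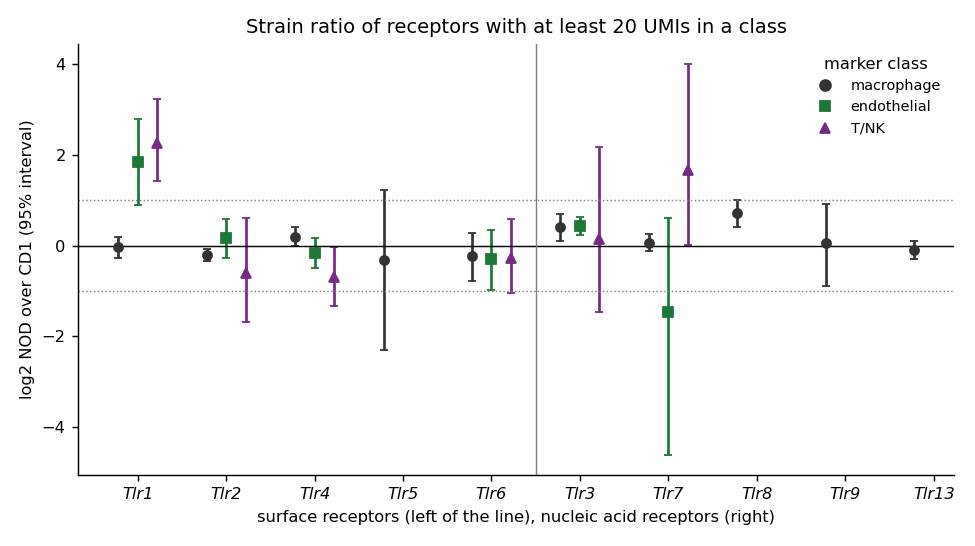
Log2 ratio of NOD over CD1 with 95% intervals for receptors with at least 20 UMIs in the macrophage-like (circles), endothelial-like (squares) and T/NK-like (triangles) classes, with dotted lines at a 2-fold difference. The macrophage ratios lay between -0.31 and 0.71, and *Tlr1* reached 1.84 in endothelial-like and 2.26 in T/NK-like barcodes.

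The promoters of *Tlr2*, *Tlr3* and *Tlr8* are shown because their intervals between strains did not hold 0 in the whole macrophage-like class. Each line gives 250 bases before and 50 after the start of transcription, from RefSeq on GRCm38.p6, read on the gene's own strand. Capitals mark a match, on either strand, to a PU.1-like, interferon response-like or NF-kB-like motif. AP-1-like matches were sought but are not marked, and the windows shown hold none. In all, 4 motifs were sought. These were GAGGAAGT (PU.1-like), TGANTCA (AP-1-like), GAAA and GAAA with any 2 bases between them (interferon response-like), and GGGA and TTCC with any 2 bases between them (NF-kB-like).
Tlr2, chr3:83841559-83841858, minus strand: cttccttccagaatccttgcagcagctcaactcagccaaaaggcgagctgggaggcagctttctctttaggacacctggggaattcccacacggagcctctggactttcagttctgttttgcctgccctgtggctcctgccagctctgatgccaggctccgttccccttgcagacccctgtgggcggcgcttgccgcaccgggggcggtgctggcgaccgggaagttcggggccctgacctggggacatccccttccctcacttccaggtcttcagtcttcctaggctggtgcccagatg
Tlr3, chr8:45410331-45410630, minus strand: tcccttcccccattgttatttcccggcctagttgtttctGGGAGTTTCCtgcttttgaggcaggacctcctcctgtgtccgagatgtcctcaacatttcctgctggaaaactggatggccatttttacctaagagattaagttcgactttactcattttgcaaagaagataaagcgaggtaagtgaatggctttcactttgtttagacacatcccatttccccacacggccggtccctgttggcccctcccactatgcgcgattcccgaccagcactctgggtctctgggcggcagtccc
Tlr8, chrX:167264280-167264579, minus strand: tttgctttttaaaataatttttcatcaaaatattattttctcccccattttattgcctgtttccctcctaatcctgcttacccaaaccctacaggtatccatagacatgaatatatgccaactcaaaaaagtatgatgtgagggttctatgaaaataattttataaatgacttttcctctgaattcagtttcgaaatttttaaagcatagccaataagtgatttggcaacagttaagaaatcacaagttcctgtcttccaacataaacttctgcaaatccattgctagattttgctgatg
In these windows *Tlr3* had 1 NF-kB-like match, 211 bases before the start, a motif that 1.47% of 32851 promoters hold. The windows of *Tlr2* and *Tlr8* had no match to any of the 4 motifs, which says only that these letters are not in them. The *Tlr2* window holds gggaattccc, a near match to the NF-kB-like motif that the letters used here leave out. No match is therefore not the absence of a site, and *Tlr3* and *Tlr2* cannot be set apart by it. RefSeq windows were found for 8 of the 10 receptors. Among those not shown, *Tlr1* and *Tlr9* held a PU.1-like match (3.20% of promoters), *Tlr9* an AP-1-like match (7.81%) and *Tlr6* 2 interferon response-like matches (3.44%) that overlap. The counts were made on GRCm39, and these coordinates were not used for them.

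Within the macrophage-like class, markers of monocytes and of other cell types differed between strains. *Ccr2*, the chemokine receptor of recruited monocytes, was at 104 CPM in NOD against 21.6 in CD1, and of the other 5 monocyte genes *Ly6c2*, *Chil3* and *Treml4* had log2 ratios of 2.35, 2.98 and 1.01. *Cd300e* was at 0.76 (-0.72 to 2.06) and *Ace* at -0.51 (-1.79 to 0.57). *Ccr2* was higher in T/NK-like barcodes, at 181 CPM in NOD and 271 in CD1. *Ly6c2* was at 132 CPM in T/NK-like barcodes of CD1 and 0.354 in those of NOD, and at 103 CPM in plasma-like barcodes of NOD. Neither gene was thus particular to monocytes here, and the part of RNA from those classes was not tested. Dendritic markers were found at 196 CPM in NOD and 91.5 in CD1, and 8 of 8 were higher in NOD. T/NK markers stood at 117 and 36.5 CPM (8 of 9 higher in NOD), and B markers at 44.2 and 5.20 CPM (7 of 7). Plasma cell markers were at 149 and 38.8 CPM (3 of 4 higher). Endothelial markers were lower in NOD, at 28.6 and 61.1 CPM (1 of 8 higher), and so was the plasmacytoid sum, at 183 and 298 CPM, although 4 of its 5 markers were higher. In the 479 NOD and 2494 CD1 barcodes without any T/NK or B marker UMI, the log2 ratio was 0.55 (0.16 to 0.93) for *Tlr8*, 0.52 (0.15 to 0.88) for *Tlr3* and -0.12 (-0.29 to 0.05) for *Tlr2*. An alternative subtracted free RNA at 5% of the UMIs of this class in both libraries, a share that was assumed and not measured. The ratios of *Tlr8*, *Tlr3* and *Tlr2* were then 0.73 (0.43 to 1.02), 0.47 (0.16 to 0.77) and -0.18 (-0.32 to -0.05). The part of dendritic, plasma and endothelial RNA was not tested. The proliferation genes *Mki67* and *Top2a* had log2 ratios of 0.06 and 0.07.

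The class was then divided by marker and by depth, chosen after the values were seen, and the *Tlr8* level of NOD was above that of CD1 in every division. The divisions overlap and divide the same UMIs, so they do not repeat the class ratio independently. In barcodes with a *Ccr2* or *Ly6c2* UMI (100 in NOD and 161 in CD1) it stood at 43.5 and 25.8 CPM, a log2 ratio of 0.75 (0.10 to 1.41). In barcodes without either it stood at 27.4 and 18.6 CPM, a log2 ratio of 0.56 (0.20 to 0.91). In barcodes with *Mki67* or *Top2a* (57 and 274) the levels were 60.4 and 18.0 CPM, a log2 ratio of 1.75 (1.06 to 2.41), and in the others 27.1 and 19.3 CPM, a log2 ratio of 0.49 (0.15 to 0.82). The difference between these ratios was not tested. By depth, the log2 ratio was 0.76 (0.41 to 1.10) in barcodes of at least 8000 UMIs and 0.64 (-0.03 to 1.26) between 2000 and 8000. Below 2000 UMIs it was 0.99 (-1.27 to 3.07), from 4 *Tlr8* UMIs in NOD and 6 in CD1.

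*Tlr3* and *Tlr2* were less even. The log2 ratio of *Tlr3* was 0.57 (0.25 to 0.89) without *Ccr2* and *Ly6c2* and -0.18 (-1.10 to 0.70) with either. It was 0.97 (0.40 to 1.51) between 2000 and 8000 UMIs and 0.27 (-0.10 to 0.62) above that. For *Tlr2* it was -0.13 (-0.28 to 0.02) at 8000 UMIs or more, -0.35 (-0.66 to -0.06) between 2000 and 8000 UMIs, and 0.41 (0.04 to 0.76) in barcodes with *Mki67* or *Top2a*, where the direction was opposite to that of the class. Below 2000 UMIs all 10 receptors together were at 143 CPM in NOD against 130.1 in CD1, and at 8000 UMIs or more they were at 481 and 455. The median depth of the class was 3545 UMIs in NOD and 7091.5 in CD1.

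**Figure D4:**
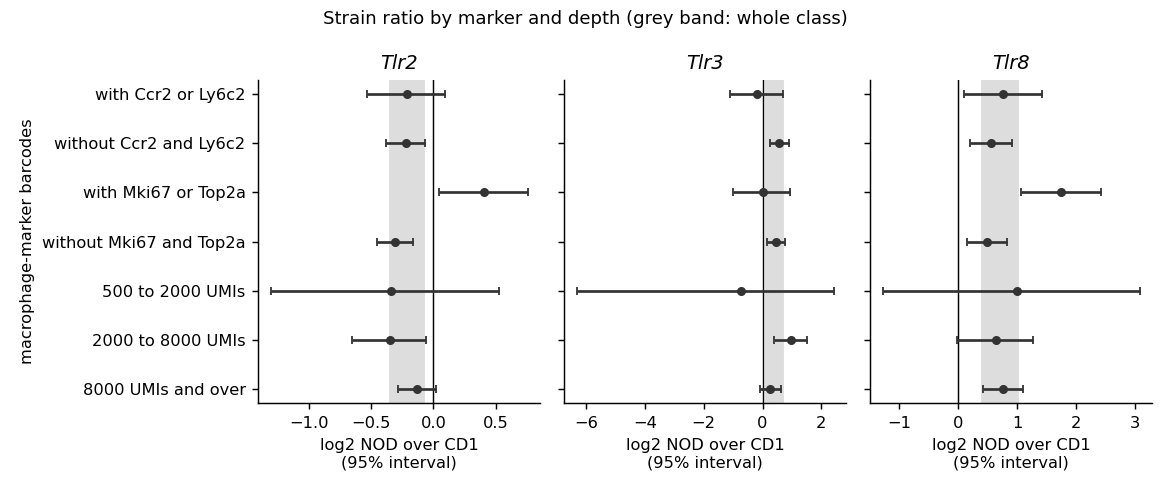
Log2 ratio of NOD over CD1 for *Tlr2*, *Tlr3* and *Tlr8* in parts of the macrophage-like class, with 95% intervals. The grey band is the interval of the whole class. *Tlr8* had a ratio above 0 in all 7 parts, which overlap, with an interval that held 0 in the parts below 8000 UMIs. *Tlr2* changed sign in barcodes with *Mki67* or *Top2a*.

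In the endothelial-like class, *Tlr3* was higher in NOD at a log2 ratio of 0.43 (0.22 to 0.64), with 271 UMIs in NOD and 654 in CD1. The value was close to that in macrophages (0.41), from other barcodes of the same libraries. *Tlr4* stood at -0.16 (-0.49 to 0.17), *Tlr2* at 0.17 (-0.28 to 0.60) and *Tlr6* at -0.30 (-0.97 to 0.34). Of 6 receptors with at least 20 UMIs, 1 was at least 2-fold higher in NOD, against 7.64% of genes, and 1 was at least 2-fold lower, against 4.40%. The first was *Tlr1*, with 22 UMIs in NOD (3.70 CPM) and 20 in CD1 (1.03 CPM), a log2 ratio of 1.84 (0.90 to 2.79). The free RNA held *Tlr1* at 18.6 CPM in NOD and 19.3 in CD1, and B and T/NK markers stood at 17.7 and 83.9 CPM in the NOD class against 0.928 and 17.1 in CD1. When free RNA was subtracted, at 7.42% of the UMIs of this class in CD1, no *Tlr1* count was left in CD1. That setting therefore gave no *Tlr1* ratio. The part of B and T/NK RNA in the *Tlr1* ratio was not tested. The second, *Tlr7*, rested on 2 and 18 UMIs, with an interval of -4.62 to 0.60.

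In the T/NK-like class, 2 of 6 receptors with at least 20 UMIs were at least 2-fold higher in NOD, against 11.3% of genes, and 0 were at least 2-fold lower, against 5.44%. *Tlr1* had 234 UMIs in NOD (11.8 CPM) and 12 in CD1 (2.48 CPM), a log2 ratio of 2.26 (1.42 to 3.23), and *Tlr7* had 39 and 3 UMIs. The class held T-like and NK-like barcodes in different shares in the 2 strains. Barcodes with *Cd3d*, *Cd3e* or *Cd3g* and without *Ncr1* and *Klrb1c* numbered 1635 in NOD and 78 in CD1, whereas barcodes with *Ncr1* or *Klrb1c* and no Cd3 UMI numbered 157 and 221. In the former, *Tlr1* was at 17.2 CPM in NOD against 10.5 in CD1, a log2 ratio of 0.72 (-0.35 to 2.05). In the latter it stood at 1.73 and 0.907 CPM, from 2 UMIs in each strain. Within the T-like barcodes a difference in *Tlr1* was not detectable at this depth. Over the whole class *Tlr4* was lower in NOD, with 73 UMIs (3.70 CPM) against 29 in CD1 (5.99 CPM). Its log2 ratio was -0.70, with an interval below 0. In the NK-like barcodes *Tlr4* reached 12.1 CPM in NOD and 6.35 in CD1 (14 UMIs each), against 1.69 CPM in the T-like barcodes of NOD. The log2 ratio in NK-like barcodes was 0.93 (-0.25 to 2.11), an interval that held 0. *Tlr2* in the T-like barcodes rested on 18 and 7 UMIs, with a log2 ratio of -2.79 (-4.11 to -1.28), and macrophage markers stood at 13.9 CPM in the NOD and 36.4 in the CD1 T/NK-like class. Their part in this ratio was not tested.

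Genes that act with the receptors were taken from lists of co-receptors, trafficking proteins, adaptors, kinases, inhibitors, transcription factors and target genes. Of 52 genes, 47 had at least 20 UMIs in the macrophage-like class. A 2-fold difference was found for 8 of these 47 genes, a share near that of all genes (13.7%). Of the 8, 7 were higher and 1 lower in NOD, and the share of all genes in each direction was not counted in this class. With at least 50 UMIs per gene, 4 were past 2-fold. The median log2 ratio of the 47 genes was 0.02. Among co-receptors, *Cd14*, which hands lipopolysaccharide to TLR4, was at 212 CPM in NOD against 405 in CD1, a log2 ratio of -0.94 (-1.04 to -0.84). It was also lower at 8000 UMIs or more, at -0.97 (-1.10 to -0.85). *Ly96* (MD-2), which binds lipopolysaccharide together with TLR4, stood at -0.23 (-0.48 to 0.01). *Cd180* stood at -0.15 (-0.31 to 0.01), and *Ly86* (MD-1), its partner, at -0.05 (-0.09 to -0.01).

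Among the genes for trafficking, *Unc93b1*, which carries the nucleic acid receptors to endosomes, was at 564 CPM in NOD and 579 in CD1, a log2 ratio of -0.04 (-0.10 to 0.03). The adaptor *Myd88* was higher in NOD, at 32.0 against 20.5 CPM (0.64, 0.35 to 0.93). Of the 8 genes past 2-fold, 4 were target genes and 1 was a transcription factor. *Irf7*, an interferon regulatory factor downstream of TLR7 and TLR9, was higher at 63.3 against 24.1 CPM (1.39, 1.17 to 1.62). *Cxcl10*, an interferon-induced chemokine, was higher at 232 against 60.3 CPM (1.94, 1.82 to 2.07), and *Ccl5* at 279 against 31.4 CPM (3.15, 3.01 to 3.29). *Irf7*, *Cxcl10* and *Ccl5* were also higher in NOD outside this class. *Irf7* was at 65.4 against 34.3 CPM in endothelial-like and 38.0 against 18.0 in T/NK-like barcodes. *Cxcl10* was at 12.9 against 3.82 and 27.0 against 12.0 CPM there. Endothelial-like *Ccl5* was at 50.3 against 3.35 CPM. *Ccl5* was at 2530 CPM in NOD against 1429 in CD1 T/NK-like barcodes, whose markers were also higher in the NOD macrophage-like class, as given above, and the part of their RNA was not tested. *Ikbke* (23 and 20 UMIs), *Sigirr* (13 and 30), *Il10* (11 and 16) and *Ptgs2* (10 and 11) were also past 2-fold higher, with log2 ratios of 2.48, 1.07, 1.74 and 2.14. *Ikbke*, too, was higher in T/NK-like barcodes, at 28.8 and 25.2 CPM, and so was *Sigirr*, at 22.7 and 24.4. *Il10* was at 4.81 CPM in NOD T/NK-like barcodes, with 0 UMIs in CD1, while *Ptgs2* was lower there (0.101 CPM in NOD). The part of T/NK RNA in these ratios was not tested. *Il1rl1*, the IL-33 receptor, was lower, at 4.40 against 14.6 CPM (-1.73, -2.51 to -1.05). The inflammatory targets *Tnf* and *Il1b* had log2 ratios of -0.08 (-0.20 to 0.03) and 0.65 (0.50 to 0.79).

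Across the 9 combinations of class and library with at least 50 barcodes, genes whose log2(CPM + 1) followed each receptor most closely were named among 13020 genes with at least 200 UMIs. For *Tlr8* these were *Kcnj10*, *Il1b* and *Gm34589* (Pearson r from 0.996 to 0.998), and for *Tlr13* *Cd300ld*, *C3ar1* and *Gm5086* (0.996 to 0.997). *Tlr7* was followed by *Cd72*, *Pstpip2* and *Ly86* (0.986 to 0.990), *Tlr2* by *Tmem86a*, *C130050O18Rik* and *Cst3*, and *Tlr4* by *Apoe* and *Atp6ap1*. *Tlr3* was followed by *Spop*, *Sult1a1* and *Gm46027*, *Tlr1* by *Gpatch3*, *Cd83* and *Rasgef1b*, and *Tlr6* by *Vps9d1* and *Gm51613*. The 9 points share 2 libraries and differ in depth, so these values are a description.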

How the data were processed

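The authors deposited raw UMI counts of each library, made with Cell Ranger 8.0.0 and holding all barcodes, and the submitters' processing notes name GRCm39, Seurat 5.0.1 and R 4.3.1. Genes carry symbols only. Here, the counts were read in Python 3.11.15 with numpy 2.4.6 and scipy 1.17.1, and the 37 mitochondrial genes were used only for an alternative. Barcodes were placed by 13 marker lists. Barcodes with markers of several lists were left out, in place of a doublet caller, and the deepest 5% were left out in an alternative. Counts were summed per class and library. CPM have Poisson, ratios conditional binomial and shares Clopper-Pearson intervals at 95%. No test was made, since there was 1 library per strain. A 2-fold difference among genes with at least 20 UMIs was the rule for counts. The genes named are all 10 receptors, the pathway genes past 2-fold, *Cd14*, *Ly96*, *Cd180*, *Ly86*, *Unc93b1* and *Myd88*, and the 3 genes most alike each receptor, of which some are not reported here. *Ccr2*, *Chil3*, *Tnf*, *Il1b* and other genes beside these were chosen after their values were seen. The code for the intervals was tried on simulated counts with 200 changed genes. These counts were drawn independently, as the intervals assume. The trial therefore says nothing about the spread between barcodes or mice. The members, lists and comparisons were chosen with earlier results of these data known. Figures were drawn with matplotlib 3.10.9.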

Additional observations from a re-analysis of the deposited data

Results flagged for a closer look

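*Tlr11* and *Tlr12* are Toll-like receptor genes outside the 10 described above, and both gave UMIs in the macrophage-like class above the 3 that a count of 0 allows. *Tlr11* was low, at 1.47 CPM in NOD (6 UMIs) and 1.62 CPM in CD1 (32 UMIs). *Tlr12*, which in mice binds profilin of parasites, stood at 62.8 CPM in NOD (257 UMIs) and 26.8 CPM in CD1 (530 UMIs), a log2 ratio of 1.23 (1.01 to 1.45). This ratio was larger than that of any of the 10 receptors in the same class. In NOD its level was like that of *Tlr7* (65.8 CPM) and *Tlr13* (62.1 CPM). In the T/NK-like, endothelial-like and fibroblast-like classes *Tlr12* stood at 1.77 CPM or below.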

How the results depend on the processing

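Across 13 other settings, 5 of them added after the data were seen, the nucleic acid receptor ratio of macrophages ran from 0.05 to 0.24, with an interval that held 0 under median-of-ratios scaling (0.08, -0.03 to 0.19) and without *Mki67* or *Top2a* barcodes (0.12, -0.01 to 0.24). The surface ratio ran from -0.33 to 0.00, moving past its interval only with each barcode weighted equally (-0.33). The log2 odds ratio ran from 0.17 to 0.38 over 12 settings, and its interval held 0 without barcodes carrying T/NK or B marker UMIs (0.17, -0.01 to 0.36). The interval of *Tlr2* held 0 there, at a marker share of at least 90% and at 8000 UMIs or more. Weighting barcodes equally also left 5 of 10 receptors highest in NOD macrophage-like barcodes, in place of 8, while CD1 had 9 in each of 12 settings. CD1 had fewer classes to set against the macrophage-like one, as given above. *Tlr8* ran from 0.47 to 0.79 and *Tlr3* from 0.27 to 0.57. With at least 50 UMIs per gene, 4 pathway genes were past 2-fold in place of 8. Endothelial-like *Tlr1* gave no ratio with free RNA subtracted, so that setting is not counted for it. Of 156 values of single genes, 152 moved by less than their interval. The other 4 all came from equal weights, with *Tlr1* at -0.30, *Tlr2* at -0.42 and *Tlr4* at -0.10 in macrophage-like and *Tlr3* at 0.64 in endothelial-like barcodes, and *Tlr4* thus lay below 0. The cause was not tested. In macrophages *Tlr1*, *Tlr5*, *Tlr9* and *Tlr13* also changed sign in some settings. Median-of-ratios scaling shifted macrophage ratios by 0.06. Depth limits *Tlr5*, *Tlr9*, the CD1 B-like and all dendritic-like values. No paired analysis was possible because each strain gave 1 pooled library.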
